A study of Mus musculus with 2 samples.

Results

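Cushion-type mesenchymal cells that were not cycling were taken from single-cell RNA profiles of the mouse embryonic heart (E12.5). A cell was a member when it held at least 3 unique molecular identifiers (UMIs, each standing for 1 captured transcript) of Car3, Cthrc1, Msx1 and Pdlim3 together, with at least 2 of these genes seen. It could hold at most 1 UMI of Tcf21, Upk3b and Krt19, genes of epicardium and epicardium-derived mesenchyme, and at most 1 UMI of the endothelial genes Pecam1, Cdh5 and Egfl7. It held fewer than 30 UMIs of the sarcomere genes Tnnt2 and Tnnc1 per 10000 and none of the cell cycle genes Pclaf, Cdk1, Prc1 and Top2a. Of 8740 cells that passed the quality minimums (1000 UMIs, 500 genes, at most 20% of UMIs from mitochondrial genes), 583 were members. The control library gave 243 of its 4100 cells and the mutant library 340 of its 4640 cells. The UMI counts of these genes chose the cells, so their levels are given below as a description.

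The endocardial cushions are matrix-filled swellings of the atrioventricular canal and the outflow tract that are later shaped into valves and septa. Their mesenchyme arises mainly from endocardial cells that lose their junctions and invade the matrix under BMP and TGF-beta signals, and in the outflow tract also from the neural crest. The matrix is rich in hyaluronan, the proteoglycan versican and the link protein Hapln1, and the mesenchyme is known for transcription factors such as Sox9, Twist1, Msx1 and Tbx20.

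The control embryos carried Tbx18-Cre and a YFP reporter allele. The mutants carried both of these and, in addition, Prmt1 fl/fl, floxed alleles of the main enzyme that places asymmetric dimethyl marks on arginine. Tbx18-Cre is active in the epicardium, the outer layer of the heart, and the series title calls the deletion specific to that layer; most cushion mesenchyme has another origin, no reporter transcript was among the counted genes, and which members had recombined was not measured. Hearts were dissociated with TrypLE, while embryo numbers and any sorting by YFP were not stated in the labels.

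Each genotype was represented by 1 library, which leaves differences between genotypes without replicates and untested, and every interval below is a 95% interval for counting error only. Members held a median of 1545 UMIs and 784 genes in the control and 1815 UMIs and 893 genes in the mutant, against 5896.5 and 4046 UMIs over all kept cells. Their UMIs summed to 477871 in the control and 760928 in the mutant, and levels are given as CPM, UMIs per 1000000 UMIs of that sum. A count of 0 allows up to 6.28 CPM in the control and 3.94 CPM in the mutant at the limit of 3 UMIs. A few cells weighed heavily in these sums: 10 control and 8 mutant members had over 5000 UMIs and carried 18.6% and 16.3% of the UMIs. In 14 control and 10 mutant members over 5% of UMIs came from haemoglobin genes, while 229 and 330 members had at most 0.5%. No member barcode was shared between the libraries, and 8 of all kept barcodes were.

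Cushion genes that the rule did not use were high in these cells, and the name is kept. Set against all other kept cells, the 10 genes with the greatest excess in control members were the markers Cthrc1, Car3, Msx1 and Pdlim3 together with Postn, Rtn1, Vcan, Twist1, Sox9 and the gene model AC167229.1. In the mutant, Tgfbi, Igf1 and Crabp1 stood among the first 10 in place of Postn, Vcan and Sox9. Twist1, a regulator of mesenchymal state, stood at 366 CPM (314 to 425) in control and 427 CPM (382 to 476) in mutant members. Sox9, needed for the expansion of cushion mesenchyme, stood at 243 (201 to 291) and 175 CPM (146 to 207). Few cells carried much of Sox9: 5 held 60.3% of its control UMIs and 45.9% of its mutant UMIs, and without the members over 5000 UMIs it stood at 105 CPM in both libraries. Of 10 epicardial markers, Upk3b, Krt8, Msln and Bnc1 were at 0 in both libraries, and the 10 summed to 50.2 CPM in the control and 17.1 CPM in the mutant; Upk3b and Krt19 were limited by the rule itself. The macrophage markers had 0 and 1 UMIs in all, and 8 neural crest and Schwann cell markers summed to 23.0 and 21.03 CPM.

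Other cell types left clearer traces. The 7 markers of Tcf21 mesenchyme summed to 2557 CPM in control and 2179 CPM in mutant members, of which Ptn made up 1618 and 1414 CPM. Tcf21 itself stood at 130 and 149 CPM, and at 154 and 174 CPM without the members over 5000 UMIs. The rule allowed 1 UMI of Tcf21, Upk3b and Krt19 together, and 63 of 243 control and 115 of 340 mutant members held 1. A sum of 2, just outside, was held by 39 control and 65 mutant cells that met the rest of the rule. The 10 cardiomyocyte markers summed to 854 CPM in control and 598 CPM in mutant members, and to 442 and 422 CPM once the members over 5000 UMIs were left out. The 10 endothelial markers summed to 638 and 516 CPM, of which Ramp2, a receptor-activity-modifying protein, made up 555 and 438 CPM, whereas Kdr had 1 UMI in the control and 0 in the mutant. Markers of vessel wall and mural cells summed to 3229 and 3276 CPM, nearly all from Tagln and Acta2, with Rgs5, Kcnj8 and Myh11 at 0 in the control. Haemoglobin and other erythroid markers summed to 42794 and 46744 CPM, and to 572 and 768 CPM without the members whose haemoglobin share was over 2%. In control barcodes with fewer than 100 UMIs, which mostly hold free RNA, Actc1 stood at 12460 CPM and Acta2 at 4579 CPM, both above their levels in members, Pdlim3 at 163 CPM, Car3 at 42.9, Cthrc1 at 28.8 and Msx1 at 16.02 CPM.

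Of the 4 genes that chose the cells, Pdlim3, a PDZ and LIM domain protein of actin filaments, was the most evenly spread. It was seen in 97.5% of control and 96.2% of mutant members and summed to 2348 and 2563 CPM. Cthrc1, a secreted protein of matrix-producing cells, was seen in 77.4% and 80.0% of members (931 and 1084 CPM). Car3, a cytosolic carbonic anhydrase, was concentrated in few cells: it was seen in 37.4% and 41.8% of members, and the tenth of cells with the most UMIs held 63.3% and 64.4% of all Car3 UMIs (1170 and 1214 CPM summed). Msx1, a homeobox factor of cushion mesenchyme, was seen in 39.5% and 54.7% of members (555 and 820.1 CPM). In cardiomyocytes, which should lack them, the share of cells with a UMI at a depth of 1000 UMIs was 0.122% and 0.790% for Msx1 and 0.121% and 0.443% for Car3, against 31.7% and 44.2% and 32.0% and 35.1% in members at that depth; the cardiomyocytes' own median depth was 8247 and 9704 UMIs.

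The thresholds cut through the low end of these values. A summed marker count of 3, just inside, was held by 24 control and 17 mutant members, and a count of 2, just outside, by 10 and 12 cells that met the rest of the rule. The median sum was 8 UMIs in control and 10 UMIs in mutant members, and the highest were 47 and 72. Of the cushion-type cells outside the cycle limit, 42 control and 73 mutant had exactly 1 cycle UMI, 8 and 24 had 2, and 103 and 154 had 5 or more. Of the cushion-type cells with 0 or at least 2 cycle UMIs, non-cycling cells made up 65.5% (60.4 to 70.3) in the control and 63.7% (59.4 to 67.8) in the mutant, a difference of -1.83 percentage points (-8.07 to 4.53). Those with at least 2 cycle UMIs had medians of 2406.5 (control) and 2705 UMIs (mutant), against 1545 and 1815 in members. The part of depth in this share was not tested.

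**Figure D1:**
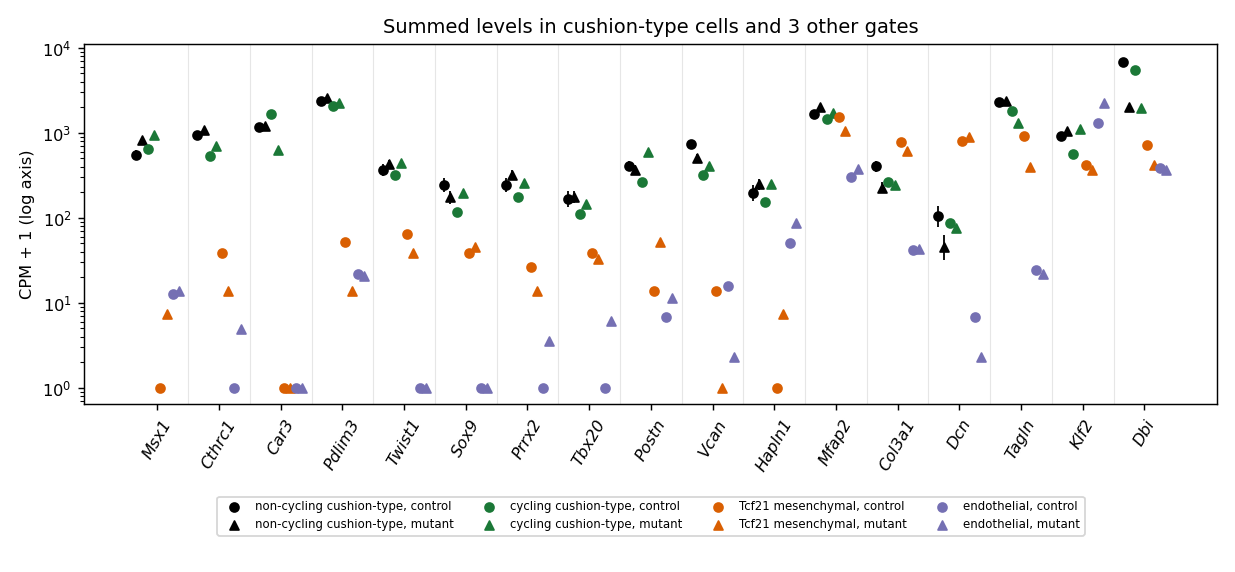
Summed level (CPM + 1, log axis) of 17 genes in non-cycling cushion-type cells (black, vertical lines: exact Poisson 95% intervals), cycling cushion-type cells (green), Tcf21 mesenchymal cells (orange) and endothelial cells with any number of cycle UMIs (purple), with circles for the control and triangles for the mutant library. Vcan, Hapln1 and Twist1 stand higher in both kinds of cushion-type cells than in the other gates, Dcn stands highest in Tcf21 mesenchymal cells, and Dbi stands near 6893 CPM in control and 2038 CPM in mutant members.

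Members carried the matrix genes of cushion tissue, and Tcf21 mesenchymal cells held more Dcn, S100a6 and Krt18. The Tcf21 gate (42 control and 64 mutant cells) required Tcf21 and fibrous collagen or Postn UMIs and at most 1 UMI of the 4 markers. Of 2140 genes with enough UMIs to compare, 214 (10.0%) were at least 1.5-fold higher in members in both libraries and 149 (6.96%) at least 1.5-fold lower. Vcan, which encodes versican, stood at 735 CPM in control and 511 CPM in mutant members and had 1 and 0 UMIs in Tcf21 cells, where a count of 0 allows up to 38.0 and 18.9 CPM. Hapln1, which ties versican to hyaluronan, stood at 197 and 247 CPM and had 0 and 1 UMIs there. Both partners of this matrix complex were thus at or near 0 in the Tcf21 cells of both libraries.

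Other genes were also low in Tcf21 cells. Rtn1, an endoplasmic reticulum protein, stood at 322 and 410.0 CPM in members with 0 and 1 UMIs in Tcf21 cells. Tgfbi, a TGF-beta-induced matrix protein, stood at 115 and 227 CPM, Meox1, a homeobox factor, at 75.3 and 71.0 CPM, and Col9a1, a cartilage collagen chain, at 62.8 and 92.0 CPM, and none of these 3 had a UMI in Tcf21 cells. Prrx2, a homeobox factor of mesenchyme, stood at 243 and 319 CPM in members and at 25.3 and 12.6 CPM in Tcf21 cells. The list of cartilage, tendon and bone genes, which includes Sox9, Scx, Col9a1 and Matn4, summed to 799 and 845 CPM in members and to 127 and 158 CPM in Tcf21 cells.

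Other genes stood lower in members. Smim1 was at 43.9 and 39.4 CPM in members against 1204 and 1670 CPM in Tcf21 cells, and S100a6, a calcium-binding protein, at 85.8 and 85.4 CPM against 1115 and 2181 CPM. Krt18, a keratin of epithelial cells, was at 31.4 and 7.89 CPM against 469 and 807 CPM, and Apela, a peptide ligand of the apelin receptor, had 0 UMIs in members of both libraries and 165 and 239.5 CPM in Tcf21 cells. Dcn, the proteoglycan decorin, was at 105 and 44.7 CPM against 798 and 882 CPM. Aldh1a2, the retinoic acid enzyme and an epicardial marker, had 1 and 0 UMIs in members and 6 and 12 in Tcf21 cells. Upk1b, also an epicardial marker, had 0 and 1 UMIs in members and 8 and 11 in Tcf21 cells. Collagen genes and their processing enzymes summed to 5054 and 4747 CPM in members and 6981 and 6423 CPM in Tcf21 cells. The Tcf21 gate itself asked for fibrous collagen or Postn UMIs, so this gap was set in part by the choice of cells. Genes of other cell types were higher in the Tcf21 gate as well: the cardiomyocyte gene Myl7 stood at 126 and 212 CPM in members against 2572 and 5099 CPM, and Pf4, of platelets and macrophages, had 3 and 3 UMIs in members against 20 and 18. The part of other cells' RNA in the Tcf21 gate was not tested.

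Against endothelial cells the members showed a mesenchymal and partly contractile profile. The gate fixed for endothelial cells without cycle UMIs held 18 control and 35 mutant cells; of 2119 genes compared, 299 (14.1%) were at least 1.5-fold higher and 201 (9.49%) at least 1.5-fold lower in members of both libraries. Tagln, an actin-binding protein of smooth muscle, stood at 2329 and 2384 CPM in members and had 1 and 2 UMIs in these endothelial cells. Mfap4 (563 and 499 CPM), Igfbp7 (379 and 551 CPM), Postn (408 and 369 CPM), Twist1 and Lum (255 and 256 CPM), genes of matrix and mesenchyme, had no UMI in endothelial cells of either library, where a count of 0 allows up to 73.6 and 26.3 CPM. Emcn and Kdr, endothelial surface proteins, had 1 UMI each in control members and 0 in mutant members, and the cell cycle inhibitor Cdkn1c stood at 77.4 and 146 CPM in members against 2160 and 2231 CPM in endothelial cells.

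Cycling cushion-type cells (128 control and 194 mutant cells with at least 2 cycle UMIs) shared the marker rule and were deeper than members, as given above. Of 2118 genes, 51 (2.41%) were at least 1.5-fold higher in the non-cycling members in both libraries and 146 (6.89%) lower. The lower genes that stood farthest apart were Ube2c, Nusap1, Cenpf, Tk1 and histone genes, which belong to replication and mitosis, and the cycle genes of the rule divided these cells. The higher genes included Kdm5b, a histone demethylase (105 and 109 CPM against 38.0 and 40.4 CPM), Tsc22d1, a TGF-beta-responsive factor (138 and 162 against 59.7 and 60.5 CPM), and Papss2, which supplies the sulphate donor for proteoglycans (60.7 and 71.0 against 24.4 and 23.3 CPM). Ctgf, a matricellular protein, stood at 144 and 141 against 65.1 and 71.4 CPM.

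The genes with the widest spread among members included contractile genes, Klf2 and Car3, which helped to choose the cells. Spread among cells was measured as the variance of each gene's residuals after the cell's UMI total was taken into account, which is near 1 for counting noise. Its median over 1941 genes was 1.10 in control and 1.12 in mutant members. Leaving aside the nuclear RNA Malat1 (32.6 and 31.3), the genes with the greatest spread in both libraries were Car3 (11.0 and 11.998), Tagln (11.0 and 12.8), Acta2, smooth muscle actin (9.99 and 8.74), and Klf2, a transcription factor induced by shear stress (8.16 and 7.54). Fabp3, a fatty acid carrier, came at 6.12 and 5.68, and Msx1 at 4.75 and 5.4. Car3 and Msx1 are markers of the rule, and the part of the rule in their spread was not tested. The spread of Actb, Fth1 and Eef1a1 in control members dropped from 6.84, 12.1 and 7.20 to 2.24, 1.84 and 1.72 once deep and haemoglobin-rich cells were set aside, whereas that of Klf2 was 7.65 and that of Acta2 8.52 in the same cells.

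A contractile state was shared by close to the same part of members in both libraries. Among the 221 control and 324 mutant members with at most 5000 UMIs and at most 2% haemoglobin, 45.2% (38.6 to 52.1) and 44.4% (39.0 to 50.04) held at least 3 UMIs of Tagln and Acta2 together. The genes named next were picked after their values were seen. Myl9, the regulatory light chain of smooth muscle myosin, stood at 927 CPM in these control cells and 89.2 CPM in control cells without Tagln or Acta2, and at 666 and 74.2 CPM in the mutant. Cnn1, calponin, went the same way (467 against 11.2 CPM and 274 against 68.0 CPM), as did Ankrd1 (126 against 22.3 and 148 against 6.18 CPM). Car3 was also higher in contractile cells, at 1926 against 479.5 CPM in the control and 1698 against 1020 CPM in the mutant. Sox9 (108 against 134 and 127 against 111 CPM) and Vcan (395 against 357 and 343 against 389 CPM) stood at like levels in both kinds of cell, with intervals of their log2 ratios that included 0.

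Klf2 and several other genes were lower where Tagln and Acta2 were seen. Klf2 stood at 365 CPM in contractile cells and 3078 CPM in the 60 control cells without Tagln or Acta2 UMIs, and at 806 and 2139 CPM in the mutant, where 90 cells had neither. The control sum rested on few cells: 5 of the 243 control members held 59.6% of all Klf2 UMIs, against 22.2% in 5 mutant members. Apoe, an apolipoprotein (359 against 1372 and 312 against 896 CPM), Crip2, a LIM protein (514 against 1327 and 367 against 1181 CPM), Ramp2 (431 against 1282 and 302 against 804 CPM) and the tetraspanin Cd9 (53.8 against 301 and 17.2 against 124 CPM) were lower in contractile cells of both libraries. Hapln1 was lower too, at 77.8 against 190 CPM and 172 against 365 CPM. The division was not complete: 9 of the 24 control members with at least 3 Klf2 UMIs (37.5%) and 29 of the 85 in the mutant (34.1%) were also contractile. Apoe, Crip2, Ramp2 and Klf2 were also present in endothelial cells (Klf2 at 3068 and 5801 CPM in the gate without cycle UMIs), and the part of endothelial RNA in these values was not tested; Emcn had 1 and 0 UMIs and Cdh5 and Pecam1 were limited by the rule.

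**Figure D2:**
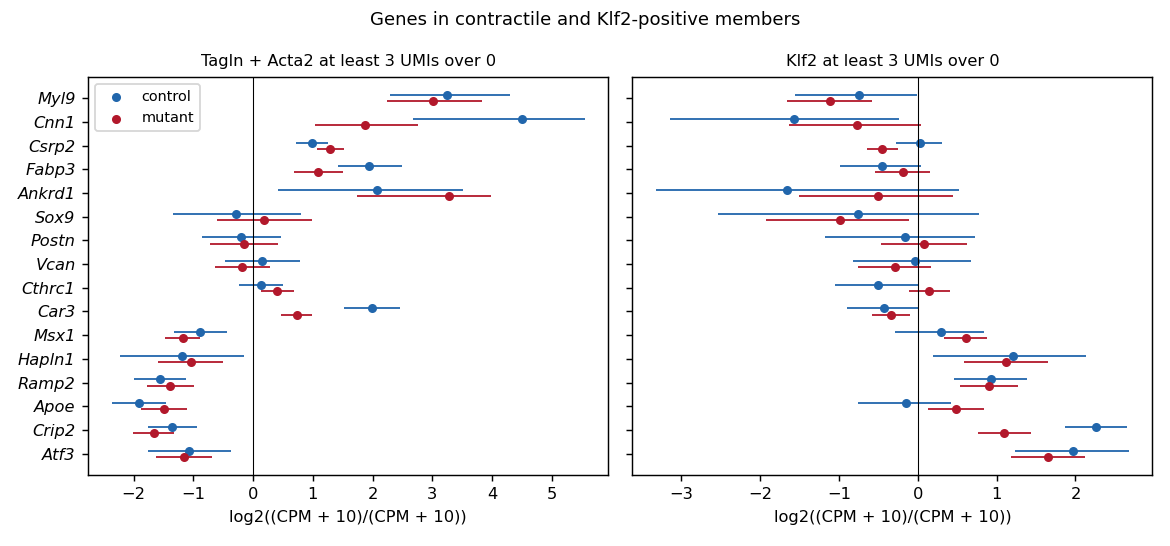
Log2 ratio of summed levels, log2((CPM + 10)/(CPM + 10)), for 16 genes in members with at least 3 UMIs of Tagln and Acta2 (left) or of Klf2 (right) over members with none, in the control (blue) and the mutant (red) library, with lines for 95% counting intervals. Myl9, Cnn1, Csrp2, Fabp3 and Ankrd1 lie to the right of 0 on the left panel and Msx1, Hapln1, Ramp2, Apoe, Crip2 and Atf3 to the left in both libraries, while Atf3, Crip2, Ramp2 and Hapln1 lie to the right of 0 on the right panel.

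Msx1 and the contractile genes also lay apart. In members with at least 2 Msx1 UMIs, Acta2 stood at 287 CPM in the control and 107 CPM in the mutant, against 1035 and 1493 CPM in members without Msx1. Tagln stood at 1513 against 3192 CPM and at 1408 against 3840 CPM, and Cnn1 at 34.4 against 253 CPM and at 68.5 against 227 CPM. Hapln1 was higher with Msx1 (206 against 117 and 347 against 149 CPM), as was Col9a3, a cartilage collagen chain (138 against 28.1 and 107 against 49.6 CPM). Car3, although it also chose the cells, did not follow Msx1: it stood at 1192 against 1451 CPM in the control and 1413 against 1429 CPM in the mutant. Members with at least 3 Car3 UMIs held more Cda, cytidine deaminase (323 against 140 and 289 against 97.4 CPM), and less Sox9 (35.9 against 140 and 70.7 against 134 CPM) and Clu, clusterin (108 against 365 and 64.3 against 159 CPM), than members without Car3. Any pair among the 4 markers is bound together by the rule, which asks for 3 UMIs in sum. Members without Msx1 had to reach that sum with the other markers, and Car3 was higher in contractile cells, as given above. The part of the rule in the gap between Msx1 and the contractile genes was not tested.

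The members over 5000 UMIs stood apart from the rest in composition. Leaving them out took the erythroid marker sum from 42794 to 38723 CPM in the control and from 46744 to 10715 CPM in the mutant. Sox9 stood at 845 CPM in the 10 deep control members and 105 CPM in the other 233, and at 534 and 105 CPM in the 8 and 332 mutant members. Ybx1, an RNA-binding protein (1307 against 206 and 1051 against 196 CPM), Eif3a, a translation initiation subunit (473 against 69.4 and 340 against 56.5 CPM), and the imprinted RNA Meg3 (552 against 92.5 and 501 against 92.6 CPM) were higher in the deep cells as well. Myl2, a ventricular light chain, was at 733 against 43.7 CPM in the control and 267 against 17.3 CPM in the mutant. Klf2, Acta2, Tcf21 and F2r, the thrombin receptor, were lower in them, F2r at 22.5 against 406 and 40.4 against 301 CPM. For many of the genes below, ratios between the libraries are also given without these deep members.

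The mutant library was next compared with the control, which asks how loss of Prmt1 under Tbx18-Cre bears on cushion cells. Prmt1 itself was not lower in mutant members: it stood at 617 CPM (549 to 692) in the control and 739.9 CPM (680.0 to 804) in the mutant, a log2 ratio of 0.26 (0.05 to 0.46). Over 12 alternatives this ratio lay between 0.15 (cells thinned to 1000 UMIs) and 0.69 (members with at least 2000 UMIs). The latter setting held 51 control and 126 mutant members. The ratio was -0.24 in Tcf21 mesenchymal cells (595 and 504 CPM), 0.31 in cardiomyocytes and 0.01 in endothelial cells counted with any number of cycle UMIs. Which exons were floxed is not stated in the labels, and UMIs counted over the whole gene do not show whether those exons were lost. Prmt1 was the 1 member of its family that reached the minimum for comparison; Prmt2, the next, had 9 and 12 UMIs, Carm1 had 4 and 9, Prmt5 had 5 and 6, Prmt3 had 5 and 5, Prmt6 had 4 and 3, Prmt7 had 1 and 6, Prmt9 had 4 and 4, and Prmt8 had none. Prmt1 lies on chromosome 7, 44975989 to 44986568, on the minus strand of GRCm38 (GENCODE M21, matched by gene identifier).

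Members made up 5.93% (5.22 to 6.69) of kept cells in the control and 7.33% (6.59 to 8.12) in the mutant, a difference of 1.40 percentage points (0.354 to 2.44, Newcombe's interval). The difference was 0.162 points with minimums of 500 UMIs and 200 genes and 2.95 points with all cells thinned to 1000 UMIs, so its size depended on how shallow cells were treated. Control members lay closer to the lower limit of 1000 UMIs: 16 control and 5 mutant members had fewer than 1100.

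Most genes stood at similar levels in the 2 libraries. Of 4369 genes with a mean of at least 20 CPM and at least 20 UMIs in all, 235 (5.38%) were at least 1.5-fold higher in mutant members and 231 (5.29%) at least 1.5-fold lower, on the scale log2((CPM mutant + 10)/(CPM control + 10)), which understates the change of low genes; 466 (10.7%) passed in either direction. The median log2 ratio was 0.01. Counts were also simulated at the same summed depths with counting error only. Of 4192 genes simulated without a change, 6.58% passed 1.5-fold in either direction. Without the members over 5000 UMIs, an alternative chosen after seeing the data, 322 genes were higher and 144 lower of 3993, and the even split between directions did not hold without those cells.

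Dbi, which encodes the acyl-CoA-binding protein (also called diazepam-binding inhibitor), had the lowest ratio of the genes chosen by the naming rule. It stood at 6893 CPM (6659.7 to 7133) in control members and 2038 CPM (1938 to 2142) in mutant members, a log2 ratio of -1.75 (-1.84 to -1.67). Across single cells, control members ran from 0 to 28.6 Dbi UMIs per 1000 UMIs of the cell with a median of 7.04, and mutant members from 0 to 8.82 with a median of 1.61. All mutant members lay within the control range: 94 of 243 control members (38.7%) lay above the highest mutant member, and 5 of 340 mutant members (1.47%) lay above the control median. At 1000 UMIs per cell, 92.4% of control and 75.1% of mutant members would show a Dbi UMI. The gap was thus spread over most members.

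In other cells of the same libraries the ratios were closer to 0, a difference that was not tested. Cycling cushion-type cells stood at 5456 CPM in the control and 1982 CPM in the mutant (log2 ratio -1.46), Tcf21 mesenchymal cells at 722 and 416 CPM (-0.78), endothelial cells with any number of cycle UMIs at 389.9 and 368 CPM (-0.08, -0.38 to 0.22), and cardiomyocytes at 778 and 678 CPM (-0.19). In both libraries the cushion-type cells held more Dbi than these other gates. In control members the gene was also unevenly spread, with a residual variance of 9.63 against 3.24 in the mutant, and it was lower in contractile than in other control cells (6574 against 9434 CPM). Free RNA in control barcodes under 100 UMIs held 1071 CPM of Dbi. The log2 ratio lay between -1.93 and -0.96 over 12 alternatives and was -0.96 in members with at least 2000 UMIs. Dbi lies on chromosome 1, 120113280 to 120121078, on the minus strand of GRCm38.

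**Figure D3:**
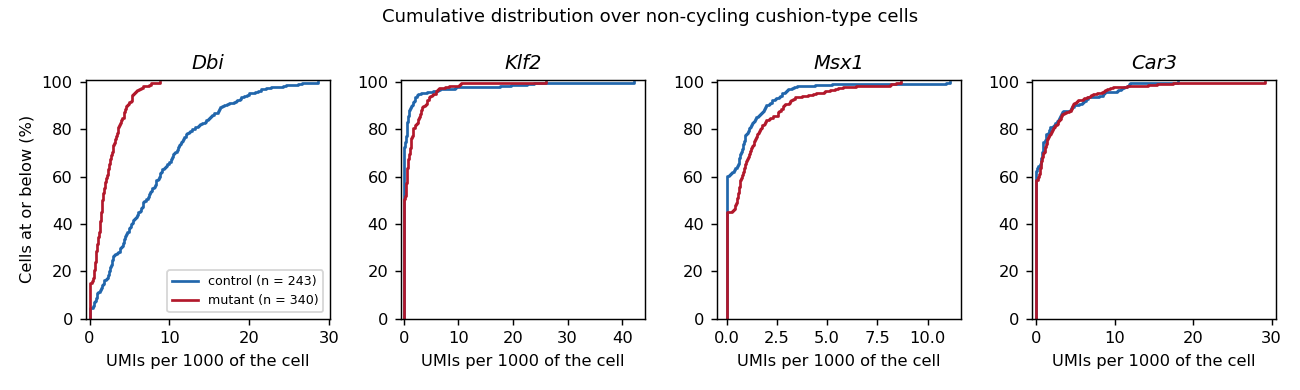
Cumulative share of non-cycling cushion-type cells (%) by their UMIs per 1000 UMIs of the cell for Dbi, Klf2, Msx1 and Car3, with the control in blue (n = 243 cells) and the mutant in red (n = 340 cells). The Dbi curves separate over nearly their whole length (medians 7.04 and 1.61), the Klf2 and Msx1 curves start from a lower share of cells at 0 in the mutant, and the Car3 curves run together.

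Msx1 was higher in mutant members and was found in more of them. Because Msx1 helped to choose the cells, its level was also taken in cells chosen by the other 3 markers: there it stood at 467 CPM (404 to 536) in the control and 714 CPM (652 to 779.5) in the mutant, with a UMI in 30.7% and 48.7% of cells. The same check gave 935 and 1034 CPM for Car3, 759 and 975 CPM for Cthrc1, and 2286 and 2477 CPM for Pdlim3. Cycling cushion-type cells showed Msx1 at 649 and 931 CPM. In all other kept cells together, the cycling ones included, Msx1 stood at 20.9 and 50.9 CPM. Whether the difference was particular to members was not tested. The log2 ratio of 0.56 in members lay below the 1.5-fold mark of 0.58 and ranged from 0.50 to 0.73 over 12 alternatives.

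Klf2 was seen in more mutant than control members. It summed to 927 CPM in the control and 1050.0 CPM in the mutant, a log2 ratio of 0.18 (0.01 to 0.35), but 5 cells held 59.6% of the control UMIs and 22.2% of the mutant UMIs. Of control members 175 of 243 had no Klf2 UMI, and of mutant members 170 of 340. At least 3 UMIs were held by 24 of 221 control (10.9%, 7.08 to 15.7) and 85 of 324 mutant members (26.2%, 21.5 to 31.4) in the set without deep and haemoglobin-rich cells. At 1000 UMIs per cell, 20.3% of control and 39.7% of mutant members would show a UMI, against 2.95% and 2.87% of cardiomyocytes. The highest single cell was in the control, at 42.1 UMIs per 1000 against 26.0 in the mutant. The log2 ratio was -0.37 in members with at least 2000 UMIs and 1.27 in cells thinned to 1000 UMIs, so its direction depended on the depth setting. In Klf2-positive members of both libraries Atf3, a stress-induced factor (622 against 152 and 604 against 186 CPM), Klf6 (578 against 204 and 543 against 264 CPM) and Hapln1 (289 against 120 and 372 against 166 CPM) were higher than in members without Klf2. Klf2, Atf3 and Klf6 are counted below among the immediate early and dissociation genes. Fos (733 against 248 and 763 against 472 CPM) and Ier2 (1800 against 1251 and 2216 against 1388 CPM), of the same list, were also higher with Klf2.

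The other genes that the naming rule placed highest in the mutant had few UMIs. Nqo2, a quinone reductase, had 9 UMIs in the control and 42 in the mutant (18.8 and 55.2 CPM, log2 ratio 1.18, 0.39 to 1.91). Sdhc, a subunit of respiratory complex II, had 15 and 60 (1.10, 0.42 to 1.78), and Zfpm1, the GATA cofactor FOG-1 that is required for cushion and valve formation, had 19 and 69 (1.02, 0.38 to 1.66). Plac1, which lies on the X chromosome, Cfap36, Sucla2 and Stk16 had log2 ratios from 0.9997 to 1.08. These genes kept ratios of at least 0.86 without the deep members. Tubb3 (1.14), Cox6a2 (1.02) and Htra1 (0.99) did not: their ratios were 0.48, -0.27 and -0.23 without those cells. In cycling cushion-type cells the ratio was -0.14 for Nqo2, -0.14 for Sdhc, -0.53 for Zfpm1 and 0.12 for Stk16. There it was 0.31 for Sucla2, 0.50 for Cfap36, 0.53 for Plac1, 0.42 for Tubb3, 0.09 for Cox6a2 and 1.19 for Htra1. In endothelial cells with any number of cycle UMIs the ratio was 0.59 for Sdhc, 0.56 for Sucla2 and 0.82 for Cox6a2.

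Among the lowest were an adhesion gene, a matrix gene and a pair of sarcomere genes. Cd9, a tetraspanin, had 55 UMIs (115 CPM) in the control and 30 (39.4 CPM) in the mutant, a log2 ratio of -1.34 (-1.90 to -0.77), and Dcn stood at 105 and 44.7 CPM (-1.07, -1.63 to -0.50). Without deep members the ratios were -1.35 and -1.14. In Tcf21 cells, where Dcn is most abundant among the gates, its log2 ratio was 0.14, and in cycling cushion-type cells it was -0.20. Cd9 had a ratio of -0.24 in cycling cushion-type cells (89.6 and 74.5 CPM). Myl3 (180.0 and 59.1 CPM) and Myl2 (172 and 57.8 CPM), ventricular light chains, had ratios of -0.56 and -0.98 without deep members; the cardiomyocyte marker sum was also lower in the mutant, and the part of cardiomyocyte RNA in them was not tested. Iqgap1, Frmd4a, Numa1, Pdzk1ip1 and Trmt10a had ratios from -1.39 to -1.08 on 24 to 64 UMIs in the control and 11 to 44 in the mutant. Without deep members these were -0.67 for Iqgap1, -1.07 for Frmd4a, -0.76 for Numa1, -1.76 for Pdzk1ip1 and -0.93 for Trmt10a. In cycling cushion-type cells they were 0.001 for Iqgap1, -0.18 for Frmd4a, 0.47 for Numa1, -0.38 for Pdzk1ip1 and -0.47 for Trmt10a. Myl3 and Myl2 had ratios of -1.94 and -1.85 in those cycling cells. Pdzk1ip1 was seen in 6.17% of control and 2.06% of mutant members, and its ratio was -0.55 in members with at most 2% haemoglobin. In endothelial cells with any number of cycle UMIs the ratio of Trmt10a was -0.74.

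**Figure D4:**
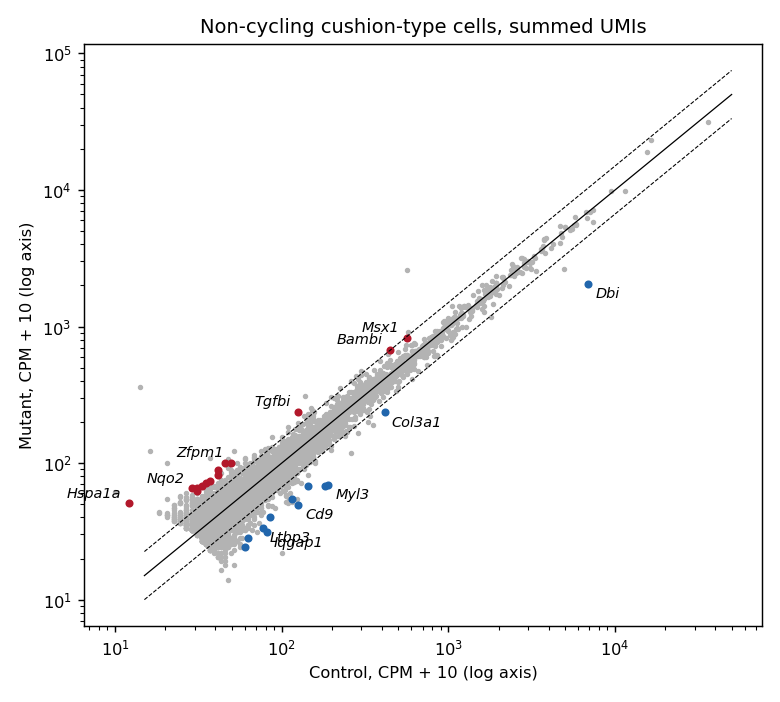
Summed level of the 4369 compared genes in non-cycling cushion-type cells of the control (horizontal) and the mutant library (vertical), both as CPM + 10 on log axes, with the line of equality and dashed lines at 1.5-fold. Coloured genes are the 10 highest and 10 lowest of the naming rule and Msx1, Hspa1a, Tgfbi, Ltbp3, Bambi and Col3a1. They are red where higher and blue where lower in the mutant, and other genes named in the text are grey. Dbi lies far below the lower dashed line (6893 and 2038 CPM), while most other coloured genes lie below 200 CPM in the control.

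Signalling genes were taken by pathway, from ligands to targets, and each list's count is to be read against 5.38% of all genes higher and 5.29% lower. Of 44 BMP and TGF-beta genes listed 19 were compared; 5 were higher in the mutant, 2 were lower, and their median log2 ratio was 0.17 against 0.01 for all genes. The ligand gene Bmp4 had 13 and 43 UMIs (27.2 and 56.5 CPM, log2 ratio 0.84, 0.11 to 1.55). The co-receptor gene Eng was lower, at 43.9 and 21.03 CPM (-0.80, and -0.35 without deep members). Bambi, a decoy receptor that is itself a BMP target, stood at 433 and 665 CPM (0.61, 0.38 to 0.84). Among target genes Id2 stood at 213 and 343 CPM (0.66, 0.34 to 0.99), Id3 at 1036 and 1413 CPM (0.44, 0.29 to 0.60), Smad6 at 35.6 and 60.4 CPM (0.63) and Id1 at 364 and 331 CPM (-0.13, -0.41 to 0.15). Of these inhibitors of differentiation, Id2 passed 1.5-fold and Id3 and Id1 did not.

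Tgfbi, a target of TGF-beta, stood at 115 CPM in the control and 227 CPM in the mutant (0.92, 0.51 to 1.35), but without the deep members its ratio was -0.08. Ltbp1 and Ltbp3, which bind latent TGF-beta to the matrix, were lower: Ltbp1 stood at 100.4 and 44.7 CPM (-1.01, -1.58 to -0.44) and Ltbp3 at 67.0 and 23.7 CPM (-1.19, -1.86 to -0.50), and without deep members the ratios were -0.73 and -1.24. In cycling cushion-type cells Ltbp1 had a ratio of 0.79 and Ltbp3 of -0.12.

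Of the other pathways, 4 of 20 Notch genes were compared and none passed 1.5-fold; Hes1, a Notch target, stood at 326 and 321 CPM (-0.03, -0.31 to 0.27). In the Wnt list 2 of 13 compared genes were higher (the receptor genes Fzd1 and Lrp6, with 7 and 25 and 11 and 31 UMIs) and 2 lower (Wnt5a and Dkk3, on 13 and 10 and 19 and 12 UMIs), with a median of -0.18. Of 16 growth factor and receptor genes, Hbegf, an EGF-family ligand that restrains valve growth, was higher (15 and 54 UMIs, 31.4 and 71.0 CPM, 0.97, 0.28 to 1.65) and Pdgfrb was lower (54.4 and 31.5 CPM, -0.63, -1.31 to 0.06). Mdk, midkine, stood at 2762 and 3168 CPM (0.20) and Ptn, pleiotrophin, at 1618 and 1414 CPM (-0.19). Of 8 axon guidance genes 1 was higher, Epha7, and 3 lower, Efnb1, Epha3 and Robo2, each on under 60 UMIs per library. Their median was -0.40, and without deep members Epha3 stood at 0.33 and Epha7 at 0.27.

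Most of the compared cushion transcription factors lay within 1.5-fold. Of 41 listed, 22 were compared; Snai1 (13 and 40 UMIs, 0.75, 0.01 to 1.47) and Foxp1 (20 and 57 UMIs, 0.71, 0.07 to 1.36) were higher, Zeb1 was lower (21 and 13 UMIs, -0.99, -1.72 to -0.22), and the median was -0.05. Snai1 and Zeb1 both encode repressors that help cells leave an epithelial state, and they lay on opposite sides. Tbx20 stood at 167 and 176 CPM (0.07), Gata6 at 178 and 175 CPM (-0.02), Twist1 at 366 and 427 CPM (0.22) and Prrx2 at 243 and 319 CPM (0.38). Sox9 had a ratio of -0.45 (-0.80 to -0.10) over all members and stood at 105 CPM in both libraries without the deep members. Sox4, a factor of the same family, stood at 372 and 275 CPM (-0.43), and its ratio was 0.18 without deep members.

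Matrix genes were lower more often than higher, on few UMIs each. Of 30 matrix glycoproteins and proteoglycans compared, 6 were lower and 1, Tgfbi, was higher, with a median of -0.13. The lower genes were Dcn, Ltbp1 and Ltbp3, given above, Nid1 of the basement membrane (23 and 11 UMIs, -1.25), Tnc, tenascin C (17 and 10 UMIs, -0.98), and Fbn1, fibrillin (35 and 30 UMIs, -0.75, -1.37 to -0.12). Without deep members these 6 had ratios between -1.24 and -0.67, and in cycling cushion-type cells between -0.20 and 1.003. The abundant members stood close together: Mfap2 at 1668 and 2008 CPM (0.27), Sparc at 1042 and 1039.5 CPM and Postn at 408 and 369 CPM (-0.14). Vcan had a ratio of -0.51 (-0.72 to -0.31) over all members and of -0.04 without the deep ones, and Hapln1 of 0.31 (-0.03 to 0.67) and 0.83.

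Collagen genes were divided. Of 22 collagen and collagen-processing genes 2 were higher (Col11a1 with 7 and 21 UMIs, and Crtap with 9 and 33) and 3 lower, with a median of -0.04. Col3a1, a fibrillar chain, stood at 404 and 226 CPM (-0.81, -1.10 to -0.52), and at -0.58 without deep members. Col5a1 (24 and 18 UMIs, -0.84) and Col4a1 (16 and 14 UMIs, -0.61) were the others, and their ratios without deep members were -0.16 and 0.26. Col1a1 stood at 347 and 289 CPM (-0.26, -0.54 to 0.03). Among proteases and inhibitors Htra1 was higher and Timp3 lower (28 and 19 UMIs, -0.97, -1.65 to -0.27) of 10 compared.

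Contractile and cytoskeletal genes were near equal: of 30 compared none was higher and 3, Myh9, Myh10 and Flna, were lower, with a median of -0.10. Tagln stood at 2329 and 2384 CPM (0.03) and Acta2 at 707 and 708 CPM (0.00). Myh10 (326 and 212 CPM) and Flna (188 and 116 CPM), which encode a non-muscle myosin and filamin A, had ratios of -0.60 and -0.66 over all members and of 0.29 and -0.09 without deep ones. Cnn1 (-0.48) and Myl9 (-0.45) kept their side without deep members, at -0.69 and -0.34.

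Some genes induced by stress or by tissue dissociation were higher. Of 23 immediate early genes 5 were higher, among them Nfkbia, Dusp1, Atf3 and Klf6, and 2 lower (Egr1 and Zfp36l1), with a median of 0.19. Atf3 stood at 186 and 296 CPM (0.64, 0.29 to 0.99), Klf6 at 249 and 392 CPM (0.63, 0.33 to 0.94) and Fos at 429 and 645 CPM (0.58, 0.34 to 0.81), whereas Egr1 stood at 276 and 155 CPM (-0.79, -1.15 to -0.44). The median of the same list was 0.23 in endothelial cells with any number of cycle UMIs and -0.24 in cardiomyocytes of these libraries. Hspa1a, an inducible chaperone, had 1 UMI in the control and 31 in the mutant (2.09 and 40.7 CPM; the mutant level was 1947% of the control's, with a counting interval of 324% to 79345%), and Hspb1 stood at 147 and 227 CPM (0.60), of 14 heat shock genes compared. Whether handling of the hearts differed between the libraries was not tested.

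Substrates of arginine methylation and genes of growth control mostly stood within 1.5-fold. Of 30 RNA-binding proteins known to carry methylarginine 1 was higher, Cirbp (291 and 465 CPM, 0.66, 0.38 to 0.94), and 1 lower, Hnrnpul1 (22 and 11 UMIs, -1.20), with a median of 0.01. In the p53 list, 1 of 7 was higher, Plk2 (77.4 and 122 CPM, 0.60). Of 15 genes of cycle entry and replication Cdkn1c was higher (77.4 and 146 CPM, 0.83, 0.34 to 1.34) and Mcm3 lower (14 and 11 UMIs). Cdkn1c was also higher in cycling cushion-type cells (0.87) and in endothelial cells with any number of cycle UMIs (1.25), and its ratio in members with at most 2% haemoglobin was 0.18. Among 13 imprinted growth genes Cdkn1c and Nnat (98.4 and 175 CPM, 0.77, 0.32 to 1.23) were higher, while H19 stood at 833 and 612 CPM (-0.44, and -0.15 without deep members). The fatty acid and acyl-CoA binding list held Dbi as the 1 gene past 1.5-fold of 6 compared, with a median of -0.33, and Fabp3 (849.6 and 606 CPM, -0.48) and Fabp5 (278 and 406 CPM, 0.53), both fatty acid carriers, lay on opposite sides. Of 15 adhesion genes 1 was higher, Itga4, and 2 lower, Itgav and Mcam, with a median of -0.11, and of 9 cartilage, tendon and bone genes Col11a1 was higher and Sox5 lower, with a median of 0.28. None of 16 hypoxia and glycolysis genes passed 1.5-fold, with a median of 0.20.

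**Figure D5:**
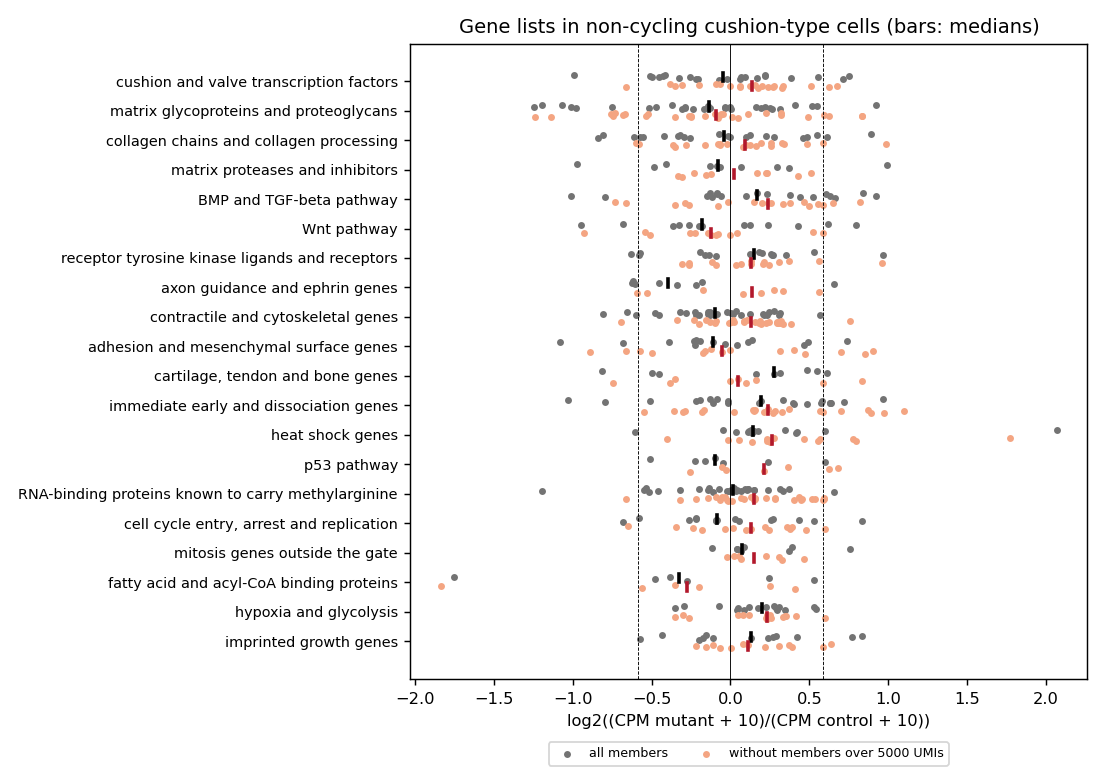
Log2 ratio of each compared gene, log2((CPM mutant + 10)/(CPM control + 10)), by list, for all non-cycling cushion-type cells (grey, black bars: medians) and without members over 5000 UMIs (orange, red bars: medians), for lists with at least 6 compared genes; dashed lines mark 1.5-fold. Medians lie between -0.40 (axon guidance and ephrin genes) and 0.28 (cartilage, tendon and bone genes) over all members, Dbi is the outlying low gene of the fatty acid list and Hspa1a the high gene of the heat shock list.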

How the data were processed

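The authors deposited UMI counts for each gene and barcode. Cell Ranger 3.0.2 had produced them, per the file headers. Seurat, of unstated version, appears in the submitters' processing notes. No genome build or annotation is given in the sources used here. Of 31053 genes, 31011 (99.9%) matched GENCODE M21 (GRCm38) by identifier, used for positions. The control matrix was unfiltered (6794880 barcodes listed, 542175 with a UMI). The labels name the Chromium v2 kit, but this list is longer than that kit's, so the chemistry, and whether both libraries shared it, was not settled and cannot be told apart from genotype. The mutant matrix held 7181 barcodes with at least 500 UMIs each.

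Members were chosen by the rule at the head of the report, and UMIs were summed over members of each library. Ratios were log2((CPM + 10)/(CPM + 10)). With 1 library per genotype no test was made. Levels carry exact Poisson intervals, ratios exact conditional binomial intervals, shares Clopper-Pearson intervals, all at 95%. The share of cells with a UMI at 1000 UMIs was computed from each cell's counts. Scrublet, run in scanpy 1.11.5, called 0 doublets in either library, so it did not work as a caller and none were removed; the top 6% of its scores held 3 control and 5 mutant members.

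Between libraries, the 10 highest and 10 lowest ratios were named among genes with at least 50 CPM in 1 library and 30 UMIs in all. Mitochondrial, ribosomal protein, haemoglobin, Y-linked, Gm and Rik genes and Xist and Tsix were left out, as were genes whose ratio in the endothelial gate without cycle UMIs had the same sign and at least 50% of the size. Up to 4 genes per list past 1.5-fold and the most abundant list members were added, with the markers and the Prmt family. Against other cells, the 10 genes farthest apart in each direction were eligible. Other genes were named after their values were seen, including those of the splits. The members and the 24 lists were chosen with earlier results of these data known. The endothelial gate with any number of cycle UMIs, and leaving out members over 5000 UMIs, were added after seeing the data. Python 3.11.15, numpy 2.4.6, scipy 1.17.1 and pandas 2.3.3 were used, and the scripts were tested on simulated data. A gene of the immediate early list is counted there but not reported by name.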

Additional observations from a re-analysis of the deposited data

How the results depend on the processing

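No paired analysis was possible because each genotype had 1 library. Of 14 alternatives, 13 were planned and 1, leaving out members over 5000 UMIs, was chosen after seeing the data. The share was higher in the mutant under all 8 that apply to it, by 0.162 percentage points with minimums of 500 UMIs and 200 genes and by 2.95 points in thinned cells. Genes at least 1.5-fold higher and lower numbered 440 and 398 in cells with at least 2000 UMIs, 370 and 378 with a pseudocount of 1 CPM, 779 and 799 with no minimum level, and 73 and 54 at 50 CPM and 30 UMIs. Higher genes numbered 354 when mitochondrial, ribosomal and haemoglobin genes were left out of CPM. Lower genes numbered 350 in cells with at most 2% haemoglobin and 144 without members over 5000 UMIs. Of 48 named genes past 1.5-fold, 43 kept their direction without those members and 27 were still past it, while in cells thinned to 1000 UMIs the counts were 42 and 21. Without members over 5000 UMIs the ratio changed sign for Tgfbi (-0.0771), Htra1 (-0.23), Epha3 (0.33), Myh10 (0.29) and Cox6a2 (-0.27). In thinned cells it did so for Epha7 (-0.0422), Epha3 (0.011), Myh10 (0.36), Tubb4b (-0.00944), Tubb3 (-0.16) and Pdzk1ip1 (0.39). Epha3 stood at 0.0887 with equal weight per cell, and Cox6a2 at -0.23 without the top 6% of doublet scores. The cause was not tested. Depth limits genes under about 20 UMIs, whose intervals are wide.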

Other observations

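Some genes outside the naming rule stood far apart between the libraries; they were chosen after their values were seen. The gene model Gm10320 had 2 UMIs in control and 269 in mutant members (4.19 and 354 CPM), with 0 and 353 CPM in Tcf21 cells and 0.908 and 66.0 CPM in cardiomyocytes. Xist stood at 6.28 and 112 CPM in members, while the Y-linked genes Eif2s3y and Ddx3y had 12 and 7 and 7 and 11 UMIs. The mix of embryo sexes was not tested. With 1 library per genotype, a difference in that mix cannot be told apart from genotype. Il11ra1, an interleukin receptor gene, stood at 89.98 and 11.8 CPM, and its near-identical copy Gm13305 had 0 and 39 UMIs, so the counts of either are uncertain. Hbb-bt, a haemoglobin gene, stood at 555 and 2572 CPM, and its ratio was -0.95 without members over 5000 UMIs.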
